A study of Mus musculus with 4 samples.

Results

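mmu-miR-204 and mmu-miR-211 are microRNAs (miRNAs) with the same seed, each carried by a gene of the Trpm family of cation channels, miR-204 by Trpm3 and miR-211 by Trpm1. Their probes were taken by name from the panel and are 2 of the 566 probes for mouse miRNAs, with no probe for another arm of either. The pair was chosen by its known difference between genotypes, that is, by the values of miR-211 in the comparison reported here, so these values are given as a description and carry no test. Mature miRNAs were counted with the NanoString nCounter assay, in which a barcoded probe marks each molecule, in R1 mouse embryonic stem cells (ESCs). The wild type cells (WT, 2 replicates) were compared with R1 cells in which the genes of all 3 DNA methyltransferases, Dnmt1, Dnmt3a and Dnmt3b, are knocked out (TKO, 2 replicates). According to the labels, both genotypes grew with leukemia inhibitory factor on gelatin, and the cells of all 4 samples were differentiated for 4 days before RNA was taken. How they were differentiated, and whether a genotype is 1 clone, is not given in the sources used here. Clone and genotype therefore cannot be told apart.

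A miRNA is cut from a hairpin in a longer transcript by Drosha and then Dicer, and pairs with target mRNAs mainly through its seed. When the hairpin lies within a protein-coding gene, both products can come from 1 transcript. miR-211 is best known from melanocytes, where the transcription factor MITF drives Trpm1 and miR-211 together. miR-204 and miR-211 are both abundant in the retinal pigment epithelium, and miR-204 is also known from lens, choroid plexus and as a repressor of Runx2, a regulator of bone formation. Neither is a marker of ESCs.

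The mature sequences show why the pair is treated as one seed family. The identifiers on the panel carry no arm, and the 5p arm was taken here as the arm measured. The capitals mark the seed, bases 2 to 8, in the RefSeq sequences of GRCm38.p6.
miR-204-5p: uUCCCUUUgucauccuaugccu
miR-211-5p: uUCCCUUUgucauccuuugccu
miR-7670-3p: uUCCCUUUcugaauaucuguaga
miR-204-5p and miR-211-5p were identical at 21 of 22 positions and differed by A17U, counted from 1 at the 5′ end of miR-204-5p, outside the seed. Of 1738 mature mouse entries in the table, only these 3 had the seed UCCCUUU, and miR-7670 had no probe on the panel. The 3p arms of the pair differed at 7 of 21 positions. The hairpins are shown with both arms in capitals.
Mir204: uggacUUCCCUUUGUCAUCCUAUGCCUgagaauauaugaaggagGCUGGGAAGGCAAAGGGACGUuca
Mir211: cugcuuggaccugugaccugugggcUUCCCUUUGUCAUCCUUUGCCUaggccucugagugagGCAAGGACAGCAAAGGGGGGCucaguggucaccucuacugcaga
Mir204 lies on the plus strand at chr19:22750605-22750672 of GRCm38.p6, within the span of Trpm3 (chr19:22137797-22995410), and Mir211 on the plus strand at chr7:64205806-64205911, within that of Trpm1 (chr7:64153835-64269772). The table used gives gene spans, so whether the hairpins lie in exons or introns is not given. No other probe with 1 precursor lay within either gene on the same strand. The Mir204 hairpin of 68 bases held 1 CpG dinucleotide, the site of DNA methylation, near its 3′ end, and the Mir211 hairpin of 106 bases held none. Of 1005 mouse hairpins in the table, 33.5% held none.

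The recovered counts summed to between 511661 and 613666 per sample, and the intervals below cover counting error only. The 33 probes for viral miRNAs served as background. Taken as the mean plus 2 standard deviations (SD), it was 69.2 normalized counts over the 4 samples and lay between 60.4 and 88.1 in single samples. The 11 probes of the miR-290 cluster, which marks ESCs, summed to 338120 and 332117 normalized counts in WT and to 271498 and 295039 in TKO cells, with a median log2 difference of -0.22. The 4 probes for muscle miRNAs summed to between 67.0 and 110.2 normalized counts per sample with none above background, and miR-122, the liver miRNA, read between 11.8 and 17.8. The 8 let-7 probes, which mark differentiated cells, summed to 1599 and 1654 in WT and to 1670.2 and 1321 in TKO cells, with a median log2 difference of -0.13. The 5 probes for blood-cell miRNAs summed to 967 and 906 in WT and to 1295 and 1446 in TKO cells, mostly from miR-142-3p (log2 difference 0.63), while miR-223 had a difference of -0.64 within background. The part of these cells in the results was not tested. In RNA from whole cultures, fewer cells that make a miRNA and less of it per cell cannot be told apart.

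miR-211 was present above background in WT ESCs and not in TKO ESCs. Its level was 150.9 normalized counts in WT replicate 1 (95% Poisson interval 127 to 178) and 137.9 in WT replicate 2 (116 to 163). It was 19.8 in TKO replicate 1 (12.1 to 30.5) and 35.4 in TKO replicate 2 (24.4 to 49.7). The genotypes did not overlap. Over all mouse probes, 36.0% had both TKO values below both WT values. The mean fell from 144 ± 9.17 (SD, n = 2) to 27.6 ± 11.0 normalized counts, 5.24-fold in the means. After adding 1 to the normalized counts, the log2 difference between TKO and WT was -2.40. This scale is used for all log2 differences below. The 283 counts of the WT and 53 counts of the TKO replicates gave a ratio of 5.29 with a counting interval of 3.93 to 7.23. Both WT values exceeded all 33 viral probes of their sample. The TKO values exceeded 12 and 20 of them, and lay at 0.702 and 1.09 times the viral mean. The TKO level is therefore only bounded from above, and with each TKO sample set to its own viral mean plus 2 SD, miR-211 was at least 2.20-fold higher in WT cells.

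**Figure D1:**
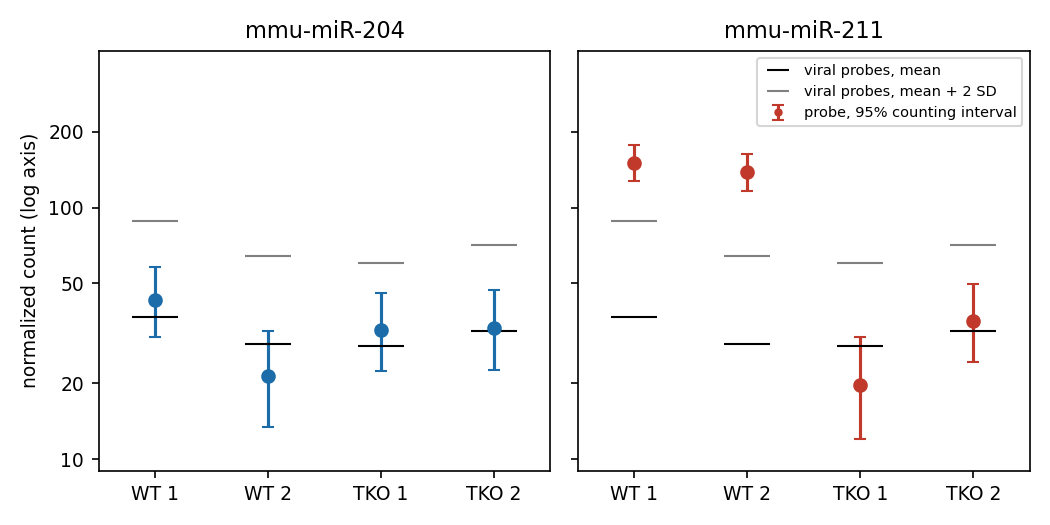
Normalized counts (log axis) of the miR-204 and miR-211 probes in the 2 WT and 2 TKO replicates, with 95% Poisson intervals for counting error. Black bars mark the mean and grey bars the mean plus 2 SD of the sample's 33 viral probes. miR-211 stands above the grey bar in both WT samples and lies near the black bar in both TKO samples, and miR-204 lies near the black bar in all 4.

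miR-204 was not above background in any sample. Its level was 42.8 normalized counts in WT replicate 1 (95% Poisson interval 30.6 to 58.3) and 21.4 in WT replicate 2 (13.4 to 32.4). It was 32.6 in TKO replicate 1 (22.4 to 45.8) and 33.2 in TKO replicate 2 (22.6 to 47.2). Both TKO values lay between the WT values. The means were 32.1 ± 15.2 (SD, n = 2) in WT and 32.9 ± 0.438 in TKO cells, and the log2 difference was 0.12. Between 13 and 22 of the 33 viral probes read lower than miR-204 in the same sample. A fall of miR-204, or a rise that stays within background, was not detectable at this level. A rise above background in TKO cells was not seen. With background included, 62 counts in WT and 64 in TKO gave a ratio of WT over TKO of 0.959. Its counting interval was 0.665 to 1.38. The WT replicates differed by 0.97 on the log2 scale, and the sign of the difference turned with them. With WT replicate 2 left out it was -0.37, and with WT replicate 1 left out 0.60.

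As the mature miRNAs differ at 1 position, the probes could share signal. In WT replicates 1 and 2 the miR-204 probe read 28.4% and 15.5% of what the miR-211 probe read, at a level that viral probes also reach. These shares set an upper limit on any miR-211 signal in the miR-204 probe. The reverse, miR-204 signal in the miR-211 probe, was not tested. The readings of both probes summed to 194 and 159 normalized counts in WT and to 52.4 and 68.6 in TKO cells, with background included. The lower sum for the UCCCUUU seed in both TKO samples restates the fall of miR-211, by which the pair was chosen. miR-204 was at background in all samples. Probes can differ in efficiency, so the sum is not a count of molecules of the family.

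Across the panel, miR-211 held the 149th place by WT mean and the 395th by TKO mean among 566 probes, while miR-204 held the 366th and the 353rd. The middle 90% of log2 differences over all mouse probes ran from -0.87 to 0.88 with a median of -0.12. The difference of miR-211 was -2.28 from that median and that of miR-204 was 0.24 from it. Next to miR-211 in the order of differences were miR-363 (-2.55) and miR-18b (-1.88), both from the X-linked miR-106a-363 cluster. Next to miR-204 were miR-485 (0.11) and miR-1956 (0.12). Of 206 mouse probes above background in both WT samples, 7 (3.40%) were above it in neither TKO sample, and of 214 above background in both TKO samples, 22 were above it in neither WT sample. The 7 were miR-363, miR-211, miR-18b, miR-486, miR-1965, miR-301b and miR-331-3p, with log2 differences from -2.55 to -0.55.

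**Figure D2:**
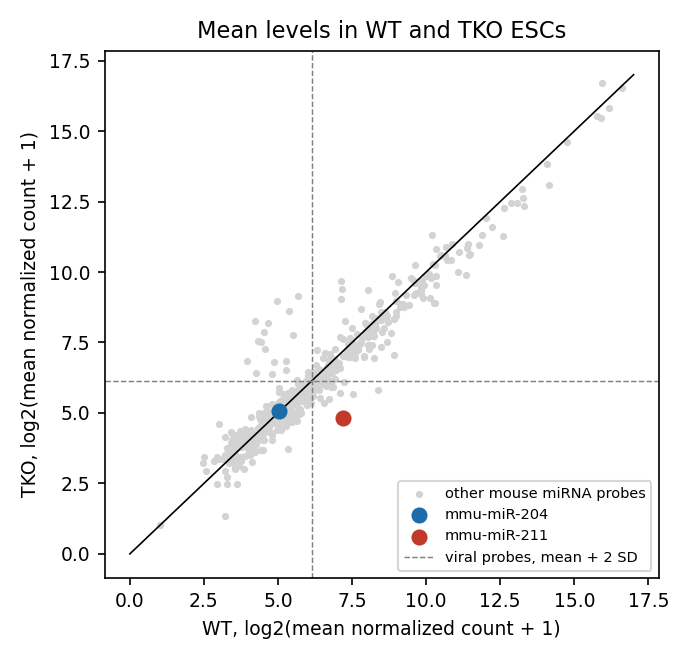
Mean levels of the 566 mouse miRNA probes in WT (x axis) and TKO ESCs (y axis), both as log2 of the mean normalized count plus 1, with the line of equal levels and dashed lines at the viral mean plus 2 SD (69.2 normalized counts). miR-211 lies to the right of the vertical and below the horizontal dashed line, and miR-204 lies on the line of equal levels within the background of both genotypes.

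The spread between replicates was set beside that of probes with a like WT level, within 0.5 on the log2 scale. For 64 such probes, the WT replicates differed by a median of 0.15 and the TKO replicates by a median of 0.23. The WT replicates of miR-211 differed by 0.13 and its TKO replicates by 0.81, and 1 of the 64 probes differed as much in TKO cells. Even between the closest pair of samples, WT replicate 2 and TKO replicate 2, miR-211 differed by -1.93. The WT replicates of miR-204 differed by 0.97, and 6 of 129 probes of like level differed as much. WT replicate 1 read higher than WT replicate 2 for 241 of the 328 mouse probes not above background (73.5%) and for 24 of the 33 viral probes (72.7%), which is the direction of miR-204.

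The miRNAs with the most similar profiles were sought by the root mean square distance between log2 levels over the 4 samples, each centred on its own mean. Nearest to miR-211 were miR-18b (distance 0.33), miR-363 (0.38), miR-124 (0.40), miR-106b (0.56) and miR-130b (0.59). The mean over the 4 samples was above background for all 5, but miR-18b and miR-363 were above it in neither TKO sample. The differences of miR-18b and miR-363 thus rest on TKO readings at background, like that of miR-211. miR-18b read 192 and 177 normalized counts in the WT samples and 45.5 and 53.6 in the TKO samples. miR-124, the abundant miRNA of neurons, read 499.8 and 457 in the WT samples and 132 and 134 in the TKO samples. All 5 were lower in both TKO samples than in either WT sample, with log2 differences between -2.55 and -1.36. They were chosen by their likeness to miR-211, so this separation follows from the choice. Over all mouse probes, 36.0% showed it. In miR-211 the TKO replicates lay further apart than in any of these 5. Nearest to miR-204 were miR-345-5p (0.028), miR-703 (0.048), miR-1894-5p (0.063), miR-684 (0.072) and miR-1188 (0.081), none of them above background. This likeness rests on 4 samples and is a description.

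**Figure D3:**
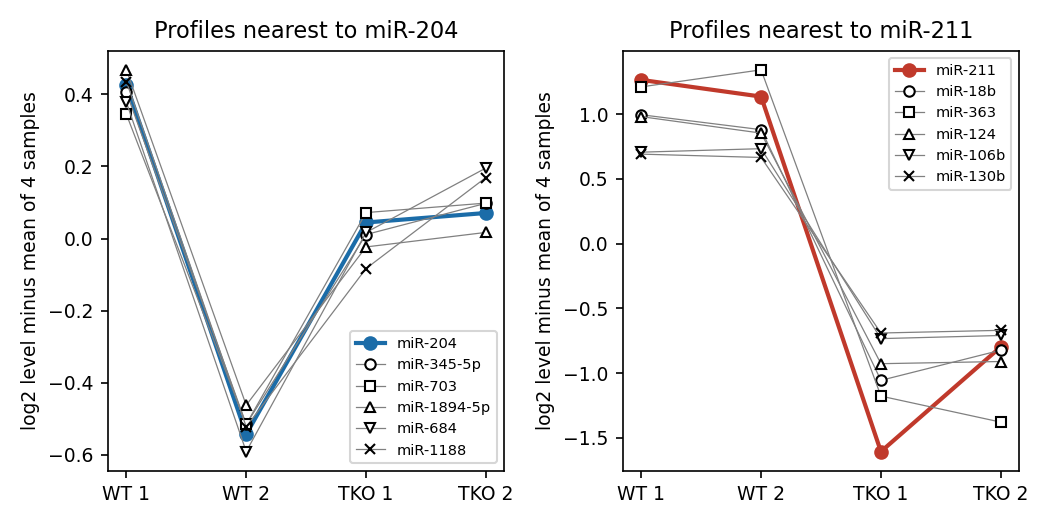
Log2 level minus its mean over the 4 samples for miR-204 and miR-211 (coloured) and the 5 nearest profiles of each (grey), with lines only to join the points of 1 miRNA. Both TKO points lie below both WT points for miR-211 and for its neighbours, which were chosen by this likeness. The profiles near miR-204 mainly separate WT replicate 1 from WT replicate 2.

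Other pairs of mature miRNAs that differ at 1 position give a scale for the gap between miR-204 and miR-211. Of 15 other pairs on the panel, with the arm taken as either one where the identifier names none, the log2 differences of the partners lay a median of 0.35 apart. Some of these pairs hold let-7a, which read only 0.97 to 1.07 normalized counts in all samples. In 8 of the pairs both probes were above background in the mean of the 4 samples, and there the median was 0.29. The gap was 2.52 for miR-204 and miR-211. Second to it came miR-29a and miR-29c (-0.45 and 1.30, a gap of 1.76), which target DNA methyltransferases, followed by miR-196a and miR-196b of the Hox clusters (a gap of 0.87, neither above background). miR-19a and miR-19b, of the miR-17-92 cluster and its paralogue, were 0.10 apart. miR-204 was at background in all samples and miR-211 in TKO cells, so the gap of 2.52 is not a measured size. The bound for miR-211 alone, 2.20-fold or 1.14 on the log2 scale, is smaller than the gap between miR-29a and miR-29c, whose probes were both above background. As the fall of miR-211 also chose the pair, its place in this order is a description.

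**Figure D4:**
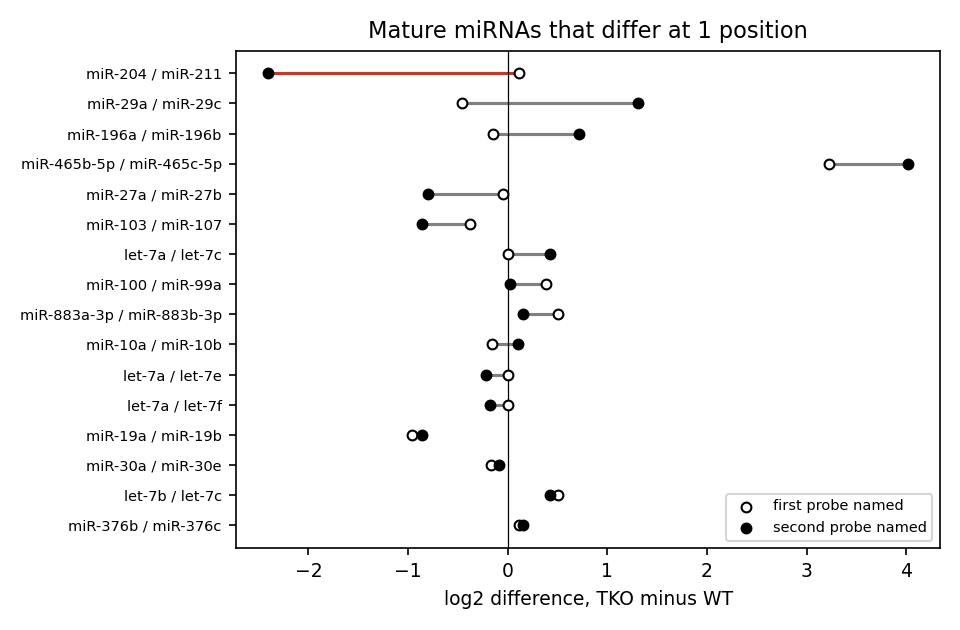
Log2 differences between TKO and WT of the partners of each pair of mature miRNAs that differ at 1 position, sorted by the gap between them. Open and filled points are the first and second miRNA named, and the red line marks miR-204 and miR-211 with a gap of 2.52 that rests on values at background, against a median of 0.35 over the other 15 pairs.

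The study sorts miRNA loci by CpG methylation at the edges of the hairpin in WT ESCs, and the pair falls on both sides of that division. miR-204 is listed as upstream, with methylation at the 5′ edge only, and miR-211 as flat, with no peak of methylation at its borders. The miRNA that was lower in TKO than in WT cells is thus in a group that the study calls unmethylated. The one in its methylated groups could not be told from background. The study also describes flat loci as methylated to a similar degree along their length, so the name does not mean that methylation is absent. The other 75 upstream probes had a median log2 difference of -0.13, from -1.62 to 2.86, and 57 of them lay below miR-204. The other 230 flat probes had a median of -0.11, from -1.88 to 4.09. None lay below miR-211, whose TKO readings were at background. The medians of both groups were close to the -0.12 of all mouse probes. By the mean of the 4 samples, 24 of the 75 upstream and 96 of the 230 flat probes were above background, against 238 of all 566. The medians thus describe mostly probes at background, which can show little change. After background subtraction both were 0. Of the upstream probes 6 were called lower and 2 higher in TKO cells by limma (adjusted p below 0.05), and of the flat probes 7 were called lower and 10 higher, against 24 and 24 of all 566 (4.24% each way). Whether the groups differ in these counts was not tested. The upstream and flat medians moved to 0.077 and 0.10 when the samples were scaled to a median ratio of 1 over the probes above background. That scaling moved the median of all mouse probes to 0.089.

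miR-204 and miR-211 also belong to wider sets of miRNAs. limma, with Benjamini-Hochberg adjustment over all 566 mouse probes, called 24 probes lower (4.24%) and 24 higher (4.24%) in TKO cells at an adjusted p below 0.05. Among 156 other probes whose single precursor lies within a protein-coding gene on the same strand, 9 were called lower and 1 higher, and the median difference was -0.12. None of the 156 fell as far as miR-211, whose TKO readings were at background. Their lowest difference was -1.62, and 48 of the 156 were above background by the mean of the 4 samples. The bound for miR-211, 1.14 on the log2 scale, is smaller in size than that lowest difference, so this order is not a measured one.

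Of 10 probes for other miRNAs that target Mitf, the regulator of pigment cells, 1 was called lower and none higher, with a median of -0.093. It was miR-124, from 479 ± 29.9 (SD, n = 2) to 133 ± 1.11 normalized counts, or -1.84 on the log2 scale (SE 0.15, limma adjusted p = 0.00620). The 2 with the highest WT levels were miR-96, at 4121 ± 30.9 in WT and 3820 ± 150.4 in TKO cells, and miR-148a, at 1303 ± 8.58 and 1797 ± 96.7. Neither was called. miR-137, which also represses Mitf, read between 21.4 and 30.0 normalized counts in all samples, within background.

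Of 11 probes for other miRNAs that target Runx2, 1 was called lower and none higher, with a median of -0.15. It was miR-205, an epithelial miRNA, which read 1313 and 1191 normalized counts in WT and 535 and 425 in TKO cells (log2 difference -1.39, SE 0.19, limma adjusted p = 0.0225). miR-23a, at 791 ± 26.4 (SD, n = 2) in WT and 777 ± 4.09 in TKO cells, was not called. miR-217 read 12.8 and 3.89 in the WT samples against 0.99 and 2.14 in the TKO samples, within background.

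Of 9 probes for other miRNAs known from the eye, 1 was called lower and none higher, with a median of -0.37, or -0.17 under median ratio scaling. Of the 9, 8 had a log2 difference below 0, as had 61.7% of all mouse probes. The called one was again miR-124, which the list shares with the Mitf list, as it does miR-182 and miR-96. miR-183, of the miR-183/96/182 cluster that is high in photoreceptors, was at 1096 ± 5.25 (SD, n = 2) in WT and 986 ± 23.2 in TKO cells and was not called. miR-184, of lens and cornea, read 68.5 and 38.9 in WT and 63.2 in both TKO samples. With any 1 sample left out, limma called neither miR-124 (differences -1.90 to -1.77, adjusted p 0.0544 to 0.115) nor miR-205 (-1.56 to -1.22, adjusted p 0.115 to 0.143). The 4 probes for neuronal miRNAs, of which miR-124 is 1, summed to 720 and 621 normalized counts in WT and to 302 and 300.2 in TKO cells, and their part in these results was not tested. Most of that difference was miR-124 itself. The other 3, miR-9, miR-128 and miR-137, summed to 220.5 and 163 in WT and to 170.0 and 166 in TKO cells.

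**Figure D5:**
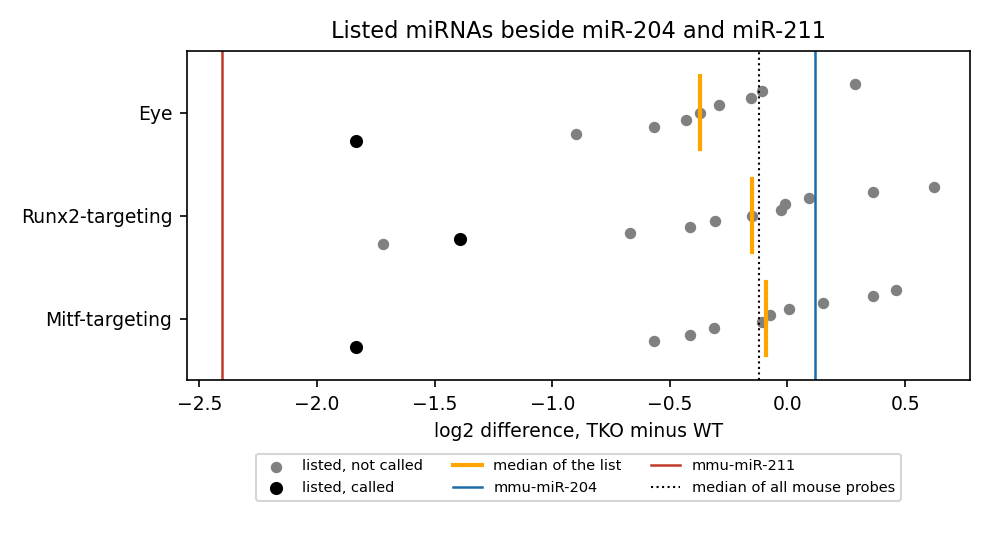
Log2 differences between TKO and WT of other miRNAs that target Mitf (10 probes) or Runx2 (11 probes) or are known from the eye (9 probes), with called probes in black, the median of each list in orange and the median of all mouse probes dotted. The red line of miR-211 at -2.40 rests on TKO readings at background and lies to the left of every listed miRNA. The blue line of miR-204 lies at 0.12.

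Trpm1 and Trpm3 each have 2 starts in the promoter table. Mir211 lies 52.0 and 20.3 kb after the starts of Trpm1, and Mir204 lies 612 and 302 kb after those of Trpm3. The 250 bases before the outer of the 2 listed starts of each gene are shown, on the plus strand of GRCm38.p6. CpG dinucleotides are in capitals, because DNA methylation is what the genotypes differ in. The Trpm1 window lies just before the gene's span. The Trpm3 window lies within that gene's span, which begins at chr19:22137797.
Trpm1, chr7:64153585-64153834: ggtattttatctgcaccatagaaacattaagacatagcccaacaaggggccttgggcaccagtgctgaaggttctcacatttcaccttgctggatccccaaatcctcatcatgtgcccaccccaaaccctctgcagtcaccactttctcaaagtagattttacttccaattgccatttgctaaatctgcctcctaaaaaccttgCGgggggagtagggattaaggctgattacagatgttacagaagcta
Trpm3, chr19:22138796-22139045: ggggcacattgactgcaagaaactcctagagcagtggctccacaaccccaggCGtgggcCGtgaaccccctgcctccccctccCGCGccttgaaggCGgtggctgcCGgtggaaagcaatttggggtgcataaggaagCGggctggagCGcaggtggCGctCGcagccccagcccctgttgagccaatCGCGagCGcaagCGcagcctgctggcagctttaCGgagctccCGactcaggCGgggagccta
The Trpm1 window held 1 CpG and that before the inner start 4, while the Trpm3 windows held 17 and 9. The median over 32851 such windows was 6, and 18.8% held at most 1 and 23.5% at least 17. The letters TCATGTG, a site of the kind that MITF binds, were searched on both strands and overlap the shorter CATGTG. They stood 142 bases before the outer start of Trpm1 and in neither Trpm3 window. TCATGTG was found in 3.25% of all windows and CATGTG in 12.3%. The letters CACGTG stood in the window of the inner Trpm1 start, as in 6.02% of all windows. Which start is used in these cells, and the methylation of these windows, were not measured here, and a match of letters is not a bound site.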

How the data were processed

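Mature miRNAs were measured in 2 WT and 2 TKO samples, grouped by the genotype in the labels. The authors normalized NanoString counts with the nSolver Analysis software (version, background handling and scaling probes not given in the sources used here) and deposited log2 values. Here these were turned back to normalized counts. All of them were whole multiples of 1 factor per sample within 0.05 counts, which gave recovered counts for the Poisson intervals. A pseudocount of 1 was added before log2, which understates changes of low probes.

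limma (lmFit and eBayes) was fitted over 566 mouse probes with Benjamini-Hochberg adjustment. In simulated counts with 200 of 566 probes changed by 2.5 on the log2 scale, it called 100% of these, and 2.44% of its calls were false. Most differences in these data are smaller, so the simulation does not show how well limma finds them. The limma p-values set the difference between genotypes against a variance from 2 replicates of each, moderated by the variances of all probes. miR-204 and miR-211 were among the 566 probes fitted, and the 24 probes called lower include miR-211. As this comparison also chose the pair, that call is not used as a test of it. Background was the mean plus 2 SD of 33 viral probes. Lists were described by counts and medians. The pair and all lists were chosen with earlier results of these data known. Named miRNAs are the pair, their 5 nearest profiles, neighbours in the order of differences, and of each list those called and the 2 highest in WT. Others were named after their values were seen.

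Of the 566 probes, 447 matched a mature name of the RefSeq table of GRCm38.p6 and 382 had 1 precursor. Alternatives covered pseudocount, scaling, background, filter, test, replicate block and each replicate left out. The tools were limma 3.58.1 in R 4.3.3 and, in Python 3.11.15, scipy 1.17.1, pandas 2.3.3, numpy 2.4.6 and matplotlib 3.10.9.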

Additional observations from a re-analysis of the deposited data

How the results depend on the processing

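The difference of miR-211 was below 0 under all 12 alternatives, between -2.81 and -2.00 with 1 replicate left out. After subtraction of the viral mean with a floor of 1 it was -6.03, and its gap to miR-204 was -5.80, as both TKO values lie near the viral mean: less that mean, miR-211 was 114 and 109 in WT, below the floor in TKO replicate 1 and 2.93 in TKO replicate 2. With 1 replicate left out the gap lay between -2.94 and -2.10. The difference of miR-204 lay between -0.37 and 0.60 over 12 alternatives, and was below 0 under 2 of them. Median ratio scaling moved the list medians to 0.11 (Mitf), 0.061 (Runx2), -0.17 (eye) and 0.096 (within protein-coding genes).

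The number of probes called lower by limma was 14 with median ratio scaling, 13 after background subtraction, 48 among the 238 probes above background, 57 with an intensity trend and robust variance and 55 with voom on the recovered counts. With the replicate block it was 10, and the 2 numbers share only a label (correlation of same-numbered deviations -0.094). With 1 replicate left out it was 0 to 1, and the number called higher 0 to 13. The counts of 0 came without TKO replicate 1 (75 lower, 39 higher by the unadjusted p at 0.05) and without TKO replicate 2 (64 and 37). miR-205 was not called after background subtraction (adjusted p = 0.101 from limma, 0.000387 to 0.143 over its alternatives). Counts of 20 to 40 limit miR-204 and the TKO level of miR-211.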
